A study of Homo sapiens with 2 samples.

Results

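Hypoxia-high cells are here the barcodes whose transcripts of 6 oxygen-regulated genes passed a threshold in single-cell libraries of MDA-MB-231 mammospheres. A barcode was a member when it held at least 1000 unique molecular identifiers (UMIs, each standing for a captured transcript), at least 3 UMIs of ADM, ANGPTL4, NDRG1, BNIP3, VEGFA and CA9 together, and when these made up at least 0.05% of its UMIs. This rule took 240 of the 1744 barcodes of at least 1000 UMIs, out of 2000 barcodes in all. The barcodes they were compared with, inside the same library, were the 731 of at least 1000 UMIs with 0 UMIs of the 6 genes, called 0-UMI barcodes below. The remaining 773 lay between the classes.

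MDA-MB-231 is a long-established human breast cancer line that lacks hormone receptors and HER2 and has mesenchymal traits, and mammospheres are floating spheres that cells form where they cannot attach. One culture grew attached in high-glucose DMEM with 0 mM metformin (titled Wildtype) and one with 2 mM (titled Metformin), each for 30 days. Both were then grown as spheres for 10 days in mammosphere medium on plates of low attachment and were taken apart with trypsin and EDTA. The labels name metformin for the attached stage, and do not say whether the sphere medium held it. Metformin is a biguanide drug used against type 2 diabetes. Each dose had 1 library and the line was the only cell source, so no difference had a replicate check, no test was run, and dose and library cannot be told apart.

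When oxygen is short, prolyl hydroxylases no longer mark the hypoxia-inducible factors (HIF) for destruction, and the factors bind DNA at short motifs near their target genes. The targets raise glucose uptake, glycolysis and lactate export, lower mitochondrial respiration, process collagen and release angiogenic signals. Spheres without vessels are known to form an oxygen gradient from rim to core, but glucose, acidity and stress pathways also act on several of the same genes.

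The HIF core motif is written ACGTG or GCGTG. The windows below are shown because 2 rule genes (CA9 and BNIP3) and 2 glycolysis genes outside the rule (PGK1 and LDHA) carry the results below. Each is the 250 bases before the annotated start, 5′ to 3′ on the gene's strand, from RefSeq on GRCh38.p14, with either motif on either strand in capitals. They are chr9:35673678-35673927 on the plus strand (CA9), chr10:131981924-131982173 on the minus strand (BNIP3), chrX:78103998-78104247 on the plus strand (PGK1) and chr11:18394313-18394562 on the plus strand (LDHA).
CA9: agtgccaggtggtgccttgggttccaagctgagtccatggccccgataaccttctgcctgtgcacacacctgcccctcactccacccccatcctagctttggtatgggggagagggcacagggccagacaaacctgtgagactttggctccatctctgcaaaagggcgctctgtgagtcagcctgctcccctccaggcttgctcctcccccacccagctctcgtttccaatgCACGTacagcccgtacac
BNIP3: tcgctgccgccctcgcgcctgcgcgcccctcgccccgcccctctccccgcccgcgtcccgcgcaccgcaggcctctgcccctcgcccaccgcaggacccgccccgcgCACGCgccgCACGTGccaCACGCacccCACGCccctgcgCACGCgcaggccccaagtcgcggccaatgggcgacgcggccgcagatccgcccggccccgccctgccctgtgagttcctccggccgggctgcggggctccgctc
PGK1: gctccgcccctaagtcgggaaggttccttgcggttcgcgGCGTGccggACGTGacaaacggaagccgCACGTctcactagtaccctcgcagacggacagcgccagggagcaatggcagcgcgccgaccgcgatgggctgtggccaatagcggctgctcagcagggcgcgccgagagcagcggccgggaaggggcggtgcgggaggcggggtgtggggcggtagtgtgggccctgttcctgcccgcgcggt
LDHA: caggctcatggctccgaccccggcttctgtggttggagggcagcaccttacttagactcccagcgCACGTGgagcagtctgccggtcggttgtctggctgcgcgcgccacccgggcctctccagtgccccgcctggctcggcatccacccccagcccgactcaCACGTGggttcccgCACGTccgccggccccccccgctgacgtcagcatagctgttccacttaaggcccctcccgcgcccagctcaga
CA9 holds a lone core close to its start, BNIP3 a run of cores in the middle of the window, PGK1 a group far from the start, and LDHA cores in both parts of its window. Such a match is a description of letters and not a binding site, and these libraries hold no measure of binding. The counts themselves came from another build, hg19, and carry no coordinates.

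Hypoxia-high barcodes were 126 of 944 barcodes (13.3%, 11.2 to 15.7%) at 0 mM and 114 of 800 (14.2%, 11.9 to 16.9%) at 2 mM. These intervals overlap, as do those of the rules without ADM, ANGPTL4, NDRG1, VEGFA or CA9. Only without BNIP3 did they not, with shares of 4.03% (2.86 to 5.48%) and 7.88% (6.10 to 9.96%). The intervals count barcodes of 1 library per dose, so they cannot compare the doses. All intervals are 95% intervals for counting error only: exact binomial for shares, exact Poisson for sums and conditional Clopper-Pearson for ratios. Those of shares treat each barcode as a separate draw, and those of sums and ratios each UMI. All leave out the spread between cultures, and those of sums and ratios also that between cells. The members were deeper than the barcodes they were compared with, since depth enters the rule: the median was 5376 UMIs against 2603 in 0-UMI barcodes at 0 mM, and 4556 against 2368 at 2 mM. Summed over barcodes, the hypoxia-high class held 734468 and 586732 UMIs and the 0-UMI class 1298233 and 1009769. A sum of 3 UMIs, the limit that a count of 0 allows, stood for 4.08 and 5.11 CPM in the hypoxia-high class, where CPM is the usual count scaled to depth, here a gene's UMIs over all UMIs of the class. Mitochondrial ribosomal RNA took 1.15% and 1.16% of the UMIs of hypoxia-high barcodes, against 1.70% and 1.38% in 0-UMI barcodes, and its part in the results was not tested.

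The class is a range cut from a continuous score and not a cell type. Exactly 3 rule UMIs, the fewest allowed, were found in 40 of the 126 members at 0 mM and 36 of the 114 at 2 mM. Just outside lay 122 and 104 barcodes with 2 rule UMIs. A further 56 and 26 deep barcodes had 3 or more rule UMIs but too small a share, of which the highest was 0.0499% and 0.0492%. Among members the share ran from 0.0505% at 0 mM and 0.0507% at 2 mM up to 0.273% and 0.429%, with medians of 0.0874% and 0.102%. The members held 48.0% of the 1370 rule UMIs at 0 mM and 53.9% of the 1107 at 2 mM, and the others lay outside the class.

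**Figure D1:**
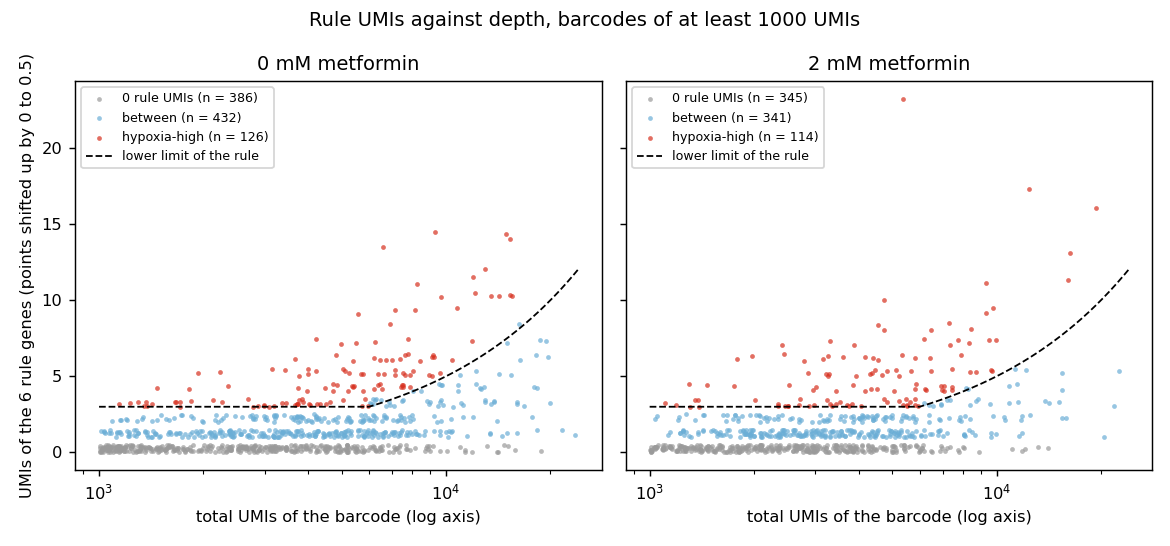
UMIs of the 6 rule genes (vertical) against total UMIs (horizontal, log axis) for each barcode of at least 1000 UMIs, 0 mM on the left and 2 mM on the right. Each point is 1 barcode, shifted up by 0 to 0.5 for visibility. The 126 and 114 hypoxia-high barcodes lie on or above the dashed limit of the rule, and 42 and 30 of them had a share under 0.075%.

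The 6 rule genes contributed unequally, and BNIP3 carried most members. These values chose the members and are given as a description. BNIP3, a mitochondrial receptor for mitophagy, was found in 111 of 126 members at 0 mM (415 CPM) and 89 of 114 at 2 mM (368 CPM). The stress-response gene NDRG1 followed with 75 (185 CPM) and 68 members (216 CPM). CA9, a carbonic anhydrase that handles acid at the cell surface, was found in 46 (114 CPM) and 26 members (59.7 CPM).

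The other 3 rule genes encode secreted proteins. VEGFA, the main vascular growth factor, was found in 33 members at 0 mM (69.4 CPM) and 64 at 2 mM (201 CPM). The vasodilator peptide gene ADM was found in 28 (55.8 CPM) and 38 members (128 CPM). ANGPTL4, a secreted inhibitor of lipoprotein lipase, was found in 25 (54.5 CPM) and 17 members (44.3 CPM). Over all barcodes of at least 1000 UMIs, VEGFA stood at 39.3 CPM in the 0 mM library and 73.7 in the other, ADM at 22.1 and 45.2, and CA9 at 27.3 and 18.

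Most members carried several of the genes. At least 3 different rule genes were found in 57 of 126 members at 0 mM and 63 of 114 at 2 mM, and only 1 in 12 and 12. BNIP3 and NDRG1 were found together in 64 and 51 members. BNIP3 and VEGFA were found together in 28 members at 0 mM and 53 at 2 mM, and BNIP3 and CA9 in 40 and 18.

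To ask whether the rule genes go together, each was measured where it was not used: in barcodes with at least 2 UMIs of the other 5 genes over barcodes with 0 of them. CA9 had the highest ratio in both libraries, 3.10 (1.89 to 5.33) at 0 mM and 2.91 (1.42 to 6.58) at 2 mM. BNIP3 had 1.92 (1.58 to 2.33) and 1.87 (1.49 to 2.35), and NDRG1 1.47 (1.13 to 1.91) and 1.75 (1.28 to 2.41). For VEGFA the ratio was 1.21 (0.839 to 1.76) at 0 mM and 1.65 (1.21 to 2.26) at 2 mM. The intervals of ADM, at 1.24 and 1.33, and of ANGPTL4, at 1.30 and 1.29, included 1 in both libraries.

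The ratios at 0 mM were lower in a narrower range of depth, with fewer barcodes. Within barcodes of 2000 to 5000 UMIs of that library, the ratio of BNIP3 was 1.17 (0.716 to 1.85), that of NDRG1 0.847 (0.439 to 1.55) and that of CA9 2.57 (0.908 to 7.81). In the same range at 2 mM they were 1.89 (1.28 to 2.78), 1.52 (0.938 to 2.44) and 2.72 (1.01 to 8.05), close to the values over all depths, and VEGFA had 2.23 (1.40 to 3.54). Within this range, the interval lay above 1 for BNIP3, VEGFA and CA9 at 2 mM, and for none of the 6 genes at 0 mM. Depth was not matched inside the range. This range was added after the data were seen.

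Outside the rule, several glycolysis genes and other known HIF targets were among the genes at least 1.5-fold higher in hypoxia-high barcodes of both libraries. A gene was compared when it reached 50 CPM in either class and 30 UMIs over both. At 0 mM 4113 genes were compared. In hypoxia-high barcodes 206 of them (5.01%) reached 1.5 times the level of 0-UMI barcodes or more, and 155 (3.77%) were lower by as large a factor. Of 4217 at 2 mM, 225 (5.34%) were higher and 222 (5.26%) lower. The split at 0 mM depended on the scaling: with TMM factors, which shift that ratio by -0.04 on the log2 scale, 164 were higher and 193 lower. Of 3761 genes compared in both libraries, 30 (0.798%) were at least 1.5-fold higher in both and 12 (0.319%) lower in both. Of these 30, 13 were in the lists of hypoxia targets, hypoxia sensing and glycolysis, which hold 46 of the 3761, and 17 were in none of them. Among the 13, STC1, LOX and EGLN1 passed the minimum only through the hypoxia-high class in both libraries, PLOD1 did at 0 mM and ENO2 at 2 mM. There these genes had to differ. The lists were chosen with earlier results of these data known, so the 13 are a description.

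Most glycolysis genes lay above a ratio of 1 in hypoxia-high barcodes, 18 of 19 compared at 0 mM and 12 of 16 at 2 mM. Of the list's 23 genes, 19 passed the minimum at 0 mM and 16 at 2 mM. At least 1.5-fold higher in hypoxia-high barcodes were 12 and 6 of them, against the 5.01% and 5.34% over all genes, and none was 1.5-fold lower. Some passed the minimum only through the class where they were high and had to differ, as ALDOC at 0 mM and ENO2 at 2 mM. The median log2 ratio was 0.85 at 0 mM and 0.46 at 2 mM, beside 0.04 and 0.00 over all genes compared. With the minimum set on the mean of both classes it was also 0.85 and 0.46, with 15 and 16 genes. Taken over the list's genes, which are not replicates, the order-statistic range of that median was 0.37 to 0.93 at 0 mM and -0.01 to 0.71 at 2 mM. The summed level of the list was 17475 CPM (17174 to 17780) in hypoxia-high barcodes at 0 mM, 12241 CPM in those between the classes and 10709 CPM (10532 to 10889) in 0-UMI barcodes. At 2 mM it was 12832 CPM (12544 to 13125), 10624 CPM and 9701 CPM (9510 to 9895). The list thus stepped up with the rule UMIs in both libraries. With each barcode thinned to 1000 UMIs, which left out none, members held a median of 17 glycolysis UMIs at 0 mM against 10 in 0-UMI barcodes. At 2 mM it was 13 against 9. Thinning keeps each barcode's share and the classes were still set at full depth, so this does not compare barcodes of like depth. Within barcodes of 2000 to 5000 UMIs the median log2 ratio of the list was 0.65 at 0 mM and 0.49 at 2 mM.

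Of the transporters, SLC16A3 and SLC2A1 were at least 1.5-fold higher in both libraries and SLC2A3 in neither. The lactate exporter SLC16A3 had 377 CPM in hypoxia-high and 200 CPM in 0-UMI barcodes at 0 mM, and 419 and 203 CPM at 2 mM. The ratios were 1.89 (1.59 to 2.25) and 2.07 (1.71 to 2.5). The glucose transporter SLC2A1 had ratios of 1.90 (1.49 to 2.42) and 1.64 (1.23 to 2.18), from 196 and 103 CPM at 0 mM and 169 and 103 CPM at 2 mM. In both genes the 0-UMI barcodes of the libraries were at nearly the same level. SLC2A3, another glucose transporter gene, had 1.15 (0.737 to 1.77) at 0 mM, and 19 against 30 UMIs at 2 mM, under the minimum.

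Of the enzymes, PGK1, LDHA, ALDOA and ENO2 were at least 1.5-fold higher in both libraries. PGK1, which makes ATP in the lower pathway, had 988 CPM in members against 549 CPM at 0 mM and 1137 against 650 CPM at 2 mM, ratios of 1.80 (1.62 to 2.00) and 1.75 (1.57 to 1.95). LDHA, which turns pyruvate into lactate, had 2637 against 1448 CPM and 2190 against 1415 CPM, ratios of 1.82 (1.71 to 1.94) and 1.55 (1.43 to 1.67). The aldolase gene ALDOA had ratios of 1.59 (1.46 to 1.73) and 1.57 (1.41 to 1.74), and the neuronal enolase gene ENO2 1.85 (1.36 to 2.52) and 1.84 (1.19 to 2.86). The promoter windows of PGK1 and LDHA printed above both hold ACGTG. LDHB, the subunit that favours the reverse reaction, lay below 1 at 0.910 (0.814 to 1.02) and 0.876 (0.773 to 0.992).

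Other glycolysis genes were higher in members at 0 mM and lay near a ratio of 1 at 2 mM. The pyruvate kinase gene PKM had 2699 CPM in hypoxia-high and 1487 CPM in 0-UMI barcodes at 0 mM, and 968 and 1052 CPM at 2 mM. Its ratios were 1.81 (1.70 to 1.93) and 0.920 (0.830 to 1.02). The phosphofructokinase gene PFKP had ratios of 1.91 (1.55 to 2.36) and 0.983 (0.769 to 1.25). The brain-type aldolase gene ALDOC had a ratio of 5.12 (2.99 to 9.13) at 0 mM, from 74.9 and 14.6 CPM, and 6 against 11 UMIs at 2 mM, under the minimum. The triosephosphate isomerase gene TPI1 lay higher in both, at 2.24 (2.05 to 2.45) and 1.47 (1.33 to 1.64), as did ENO1 at 1.62 (1.52 to 1.73) and 1.34 (1.23 to 1.45) and GAPDH at 1.41 (1.34 to 1.49) and 1.22 (1.14 to 1.31). The intervals of PKM, PFKP, TPI1, ENO1, GAPDH and LDHA do not overlap between libraries, but the difference between single libraries was not tested. Several of these enzymes have processed copies in the genome, so their counts are uncertain.

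**Figure D2:**
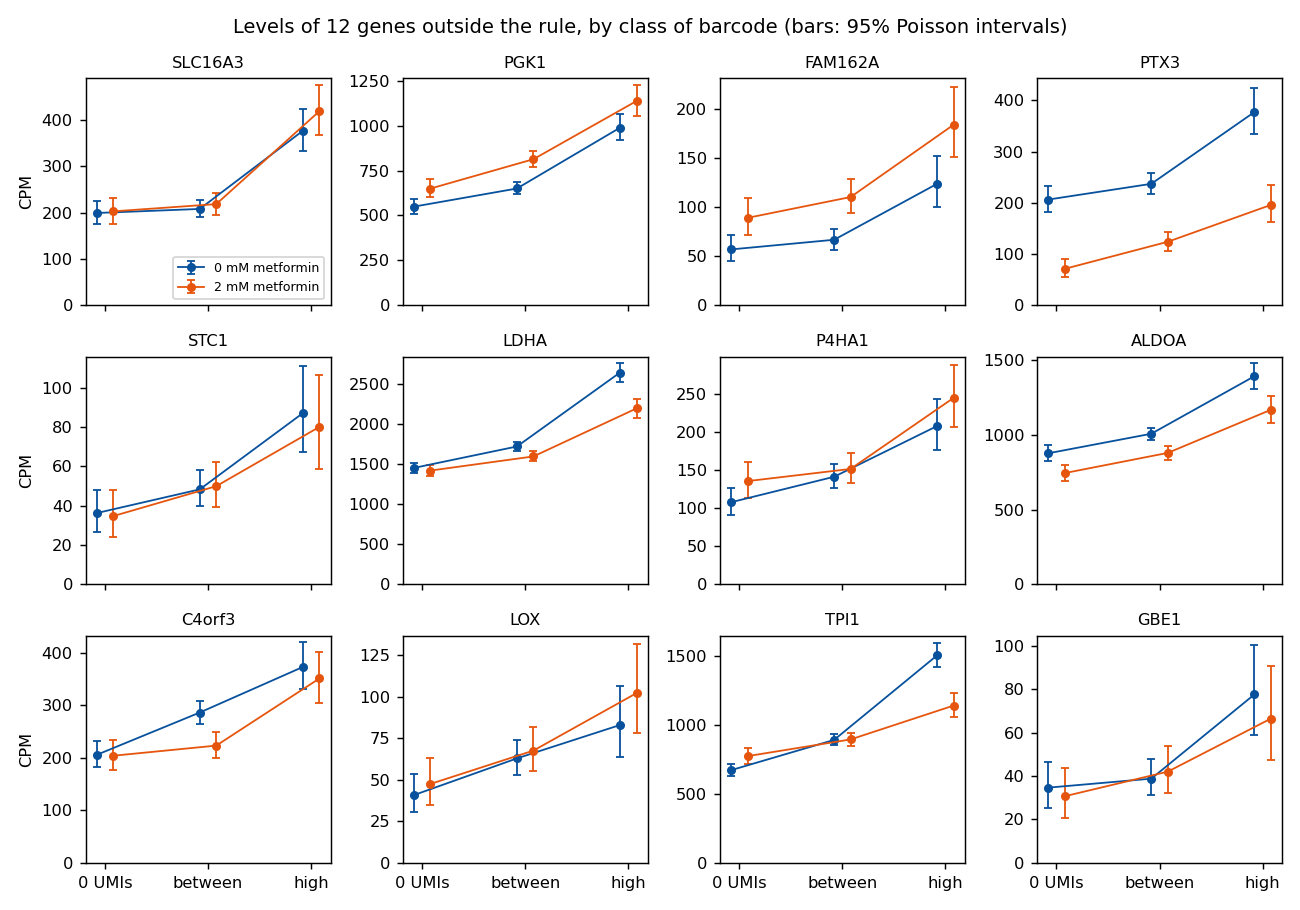
CPM (vertical, from 0) of the 12 genes outside the rule that ranked highest, in 0-UMI barcodes, barcodes between the classes and hypoxia-high barcodes, at 0 mM (blue) and 2 mM (orange), with 95% Poisson intervals. All 12 were highest in hypoxia-high barcodes of both libraries; PGK1 went from 549 to 988 CPM at 0 mM and from 650 to 1137 CPM at 2 mM.

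Beyond glycolysis, 52 genes of the table in 6 lists of genes linked to hypoxia, called hypoxia targets here, were followed. Membership of a list does not make each gene an established HIF target. Of these, 27 passed the minimum at 0 mM and 30 at 2 mM, and 25 and 25 of them lay above a ratio of 1. At least 1.5-fold higher were 11 and 12, 1.5-fold lower 0 and 1 (EFNA1, an ephrin, at 2 mM), and the medians were 0.54 and 0.50 on the log2 scale. A gene that passed the minimum only through the class where it was high had to differ. With the minimum set on the mean of both classes the medians were 0.54 and 0.57, with 25 and 27 genes. In both libraries 22 of 26 lay above 1 and 6 at least 1.5-fold, beside 1086 and 30 (0.798%) of the 3761 genes compared.

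In the list of collagen and matrix processing, all 8 of its genes at 0 mM and all 7 compared at 2 mM lay above 1, with medians of 0.58 and 0.52. The prolyl hydroxylase gene P4HA1, needed for stable collagen helices, had 208 CPM in members against 108 CPM at 0 mM and 245 against 136 CPM at 2 mM, ratios of 1.93 (1.53 to 2.45) and 1.81 (1.42 to 2.30). LOX, which cross-links collagen, had ratios of 2.03 (1.38 to 3.0) and 2.15 (1.45 to 3.21), and the lysyl hydroxylase gene PLOD1 1.90 (1.29 to 2.79) and 1.59 (1.04 to 2.40). PLOD2 had 1.56 (1.23 to 1.98) and 1.44 (1.12 to 1.84). P4HB, a partner subunit that also folds other proteins, was nearer to 1 at 1.29 and 1.03.

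Among mitochondrial targets, FAM162A and BNIP3L lay above 1 and the mitophagy receptor gene FUNDC1 below. FAM162A had 124 CPM in members against 57.0 CPM at 0 mM and 184 against 89.1 CPM at 2 mM, ratios of 2.17 (1.58 to 3.0) and 2.07 (1.55 to 2.76). BNIP3L, a relative of the rule gene BNIP3, had 1.46 (1.17 to 1.81) and 1.36 (1.06 to 1.75). FUNDC1 had 0.741 (0.480 to 1.12) at 2 mM, and 34 against 63 UMIs at 0 mM, under the minimum. PDK1, the kinase that shuts pyruvate out of the mitochondria, was under the minimum, with 29 against 23 UMIs at 0 mM, a ratio of 2.23 (1.25 to 4.03), and 27 against 9 UMIs at 2 mM, a ratio of 5.16 (2.36 to 12.5).

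Of the secreted targets, 3 of 4 compared at 0 mM and 4 of 6 at 2 mM lay above 1. STC1, the glycoprotein hormone stanniocalcin, had 87.1 CPM in members against 36.2 CPM at 0 mM and 80.1 against 34.7 CPM at 2 mM, ratios of 2.41 (1.63 to 3.59) and 2.31 (1.46 to 3.69), and 1 member held 17.2% of its UMIs in the class at 0 mM. The cytokine gene MIF had ratios of 1.97 (1.37 to 2.83) and 1.32 (1.01 to 1.71). IGFBP3, which binds insulin-like growth factors, had 0.755 (0.518 to 1.08) and 1.52 (0.957 to 2.41). VEGFB, a relative of VEGFA, had 0.832 (0.567 to 1.21) at 2 mM and was under the minimum at 0 mM.

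Of the remaining targets, the histone demethylase gene KDM3A had ratios of 1.46 (0.925 to 2.29) and 2.24 (1.45 to 3.47). The small nuclear protein gene ANKRD37 was under the minimum, with 30 against 12 UMIs at 0 mM and 20 against 9 at 2 mM, ratios of 4.42 (2.20 to 9.48) and 3.82 (1.66 to 9.54). C4orf3, a small membrane protein, had 1.81 (1.53 to 2.15) and 1.72 (1.41 to 2.10). DDIT4, a brake on mTORC1, was 1.86-fold higher in members at 0 mM (1.63 to 2.12) and 1.09-fold at 2 mM (0.935 to 1.26).

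Of the sensing machinery, 4 genes passed the minimum in both libraries. EGLN1 passed it only through the hypoxia-high class, with 50.4 against 32.4 CPM at 0 mM and 88.6 against 39.6 CPM at 2 mM, so it had to differ. EGLN1, the main HIF prolyl hydroxylase and itself a HIF target, had ratios of 1.56 (0.973 to 2.48) and 2.24 (1.45 to 3.47). HIF1A, which is regulated mainly as a protein, had 240 CPM in members against 231 CPM at 0 mM and 274 against 359 CPM at 2 mM, ratios of 1.04 (0.856 to 1.25) and 0.763 (0.630 to 0.921). VHL, the ligase subunit that marks HIF for destruction, had 1.33 (0.904 to 1.93) and 1.28 (0.861 to 1.90). CITED2, a feedback inhibitor, had 0.972 and 1.31. EPAS1, ARNT, ARNT2, EGLN2, EGLN3 and HIF1AN were under the minimum in both libraries.

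**Figure D3:**
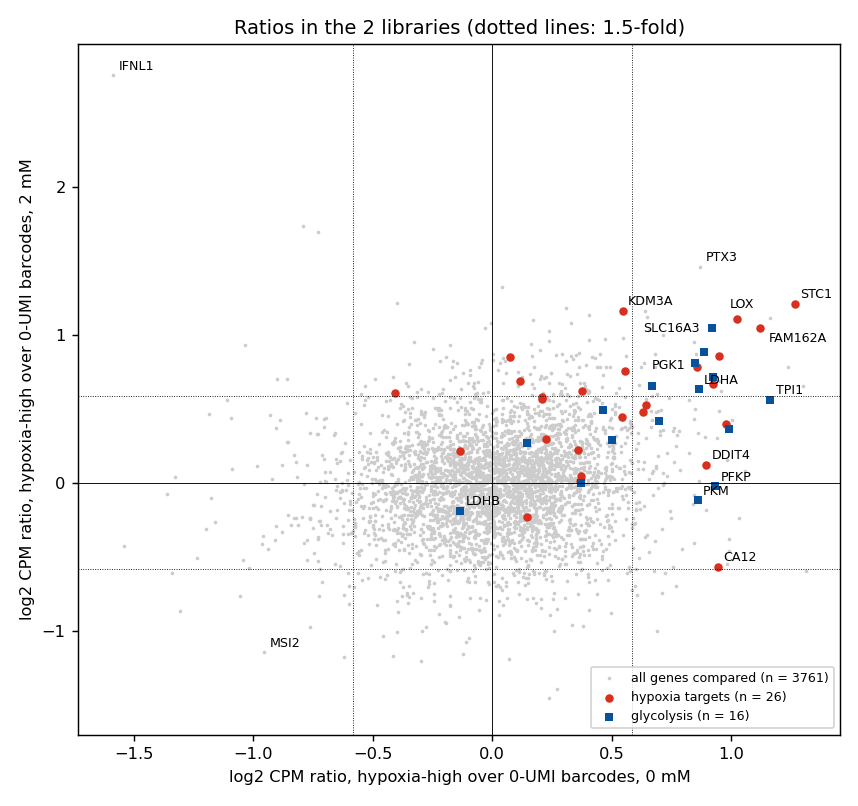
Log2 CPM ratio of hypoxia-high over 0-UMI barcodes at 0 mM (horizontal) and at 2 mM (vertical) for 3761 genes compared in both libraries, with 26 hypoxia targets in red and 16 glycolysis genes in blue; dotted lines mark 1.5-fold. Most marked genes lie to the upper right of the cloud, while PKM, PFKP, DDIT4 and CA12 lie to the right only.

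The list of pH and surface genes had a median of 0.21 at 0 mM and -0.23 at 2 mM over 3 genes. CA12, a carbonic anhydrase related to the rule gene CA9, had 182 CPM in members against 94.7 CPM at 0 mM, and 34.1 against 50.5 CPM at 2 mM. Its ratios were 1.93 (1.5 to 2.48) and 0.675 (0.381 to 1.15). At least 2 CA12 UMIs were found in 38 of 126 members at 0 mM (30.2%, 22.3 to 39.0%) and in 24 of 386 0-UMI barcodes (6.22%, 4.02 to 9.11%), which were shallower. At 2 mM they were found in 5 of 114 (4.39%, 1.44 to 9.94%) and 11 of 345 (3.19%, 1.60 to 5.63%). This division was chosen after the values were seen. Without these barcodes the median log2 ratio of glycolysis was 0.69 at 0 mM and 0.48 at 2 mM, and that of the hypoxia targets 0.51 and 0.58. PKM then had a ratio of 1.61 (1.49 to 1.74) at 0 mM and DDIT4 one of 1.57 (1.33 to 1.85).

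Several genes outside these lists were as high. PTX3, a secreted pattern recognition protein, had 377 CPM in members against 206 CPM at 0 mM and 196 against 71.3 CPM at 2 mM, ratios of 1.83 (1.54 to 2.17) and 2.75 (2.03 to 3.74). Its transcripts were unevenly spread: 1 member held 14.8% of the PTX3 UMIs of the class at 0 mM and 1 held 19.1% at 2 mM. GBE1, which branches glycogen, had ratios of 2.24 (1.49 to 3.39) and 2.17 (1.32 to 3.59). The lipolysis inhibitor gene G0S2 had 1.81 (1.41 to 2.31) and 1.82 (1.29 to 2.59), and SAP30, a subunit of a histone deacetylase complex, 1.80 (1.23 to 2.62) and 1.93 (1.24 to 3.02). These are named for being among the 30 genes at least 1.5-fold higher in both libraries. The others of the 30 outside the lists were ANKZF1, CENPE, CLGN, COL13A1, EDARADD, GRPEL1, HNRNPLL, KLF3, PTN, SAMD9, SLC5A3, STX2 and WDR54. GBE1, SAP30, ANKZF1, CLGN, EDARADD, HNRNPLL and STX2 passed the minimum only through the hypoxia-high class in both libraries. COL13A1 and PTN did at 2 mM. There these genes had to differ.

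Of the 30 genes, 25 had a promoter window in the RefSeq table, and 12 of these (48.0%) held ACGTG on either strand within 250 bases before the start. Among the 12 genes lower in both libraries the motif was in 2 of 9 windows, among the hypoxia targets in 17 of 40 (42.5%), among the genes compared in both libraries in 812 of 2971 (27.3%), and among all promoters of the table in 5101 of 27305 (18.7%). GCGTG, more frequent in these windows, was in 11 of 25 (44.0%) for the 30 genes, in 26 of 40 (65.0%) for the hypoxia targets, in 48.7% for the genes compared and in 31.9% of all promoters. The set of 30 was chosen by its ratios, so these shares are a description. SLC16A3, SLC2A1 and PTX3 held neither motif in this window, which says only that these letters are not there. STC1, C4orf3, NDRG1 and VEGFA had no window in the table.

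Lower in hypoxia-high barcodes of both libraries were 12 genes by at least 1.5-fold: ARID5B, BASP1, DYNLT3, EFEMP1, ENC1, HMGB3, LTB, MRPL34, MSI2, SLC1A3, SLC26A2 and TCTEX1D2. DYNLT3, LTB, MSI2 and SLC26A2 passed the minimum only through the 0-UMI class in both libraries. HMGB3, SLC1A3 and TCTEX1D2 did at 0 mM, and BASP1 and EFEMP1 at 2 mM. There these genes had to differ. MSI2, an RNA-binding protein of progenitor cells, had 47.7 CPM in members against 92.4 CPM at 0 mM and 44.3 against 98.0 CPM at 2 mM, ratios of 0.516 (0.343 to 0.757) and 0.452 (0.282 to 0.702). The glutamate transporter gene SLC1A3 had 0.404 (0.219 to 0.703) and 0.549 (0.351 to 0.836). Below 1 in both, but not by 1.5-fold, was the ferritin light chain gene FTL. FTL, among the most abundant transcripts, had 8647 against 12023 CPM and 7634 against 9463 CPM, ratios of 0.719 (0.698 to 0.741) and 0.807 (0.778 to 0.836). The matrix glycoprotein gene THBS1 had 0.424 (0.316 to 0.563) and 0.703 (0.580 to 0.848), but 0.874 at 0 mM within barcodes of 2000 to 5000 UMIs.

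Of mitochondrial genes, ATP5A1, SLC25A6 and MRPL34 were lower in both libraries. The ATP synthase gene ATP5A1 had ratios of 0.768 (0.657 to 0.895) and 0.757 (0.651 to 0.879), the ADP/ATP carrier gene SLC25A6 0.753 (0.654 to 0.866) and 0.800 (0.702 to 0.910), and the mitochondrial ribosomal gene MRPL34 0.658 (0.493 to 0.870) and 0.654 (0.50 to 0.849). As groups, however, the energy lists had median log2 ratios from -0.27 to 0.16. The median was -0.04 and -0.11 for 35 complex I genes, of which 12 lay above 1 in each library. For the tricarboxylic acid cycle it was -0.02 at 0 mM, with 6 of 14 genes above 1, and -0.27 at 2 mM, with 4 of 13. For the 13 mitochondrially encoded genes it was -0.01 and 0.16, with 6 and 9 above 1.

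Several other programmes had medians on opposite sides of 0 in the libraries. Of 29 G2/M genes compared at 0 mM, 24 lay above 1 with a median of 0.23, and of 26 at 2 mM, 7 did with a median of -0.16. Within barcodes of 2000 to 5000 UMIs both medians were below 0, at -0.24 and -0.34. The mitotic cyclin gene CCNB1 had a ratio of 1.58 (1.33 to 1.87) at 0 mM and 0.724 (0.528 to 0.983) at 2 mM, while the kinetochore motor gene CENPE had 1.64 (1.28 to 2.10) and 2.00 (1.43 to 2.81). At 0 mM 1 member held 32.8% of the CENPE UMIs of the class and 1 held 19.7% of those of CCNB1, and at 2 mM the shares were 15.2% and 21.3%. The median of the interferon-stimulated list was above 0 in both libraries, at 0.02 and 0.20, but was -0.28 and 0.004 within barcodes of 2000 to 5000 UMIs. That of cholesterol synthesis was 0.14 and -0.41, and 0.25 and -0.46 within that range. Of the immediate early genes, the transcripts first made after a stimulus, 3 of 9 lay above 1 at 0 mM, with a median of -0.33. At 2 mM 8 of 8 did, with a median of 0.62. Within barcodes of 2000 to 5000 UMIs these medians were -0.01 and 0.60.

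The list of NF-kB targets, acute phase genes and chemokines was lower in members at 0 mM. There 0 of 12 genes lay above 1, 5 were at least 1.5-fold lower and the median was -0.45, against 11 of 16 above 1 and a median of 0.18 at 2 mM. The acute phase gene SAA1 had 799 CPM in members against 1809 CPM at 0 mM, and 3167 against 3397 CPM at 2 mM. Its ratios were 0.442 (0.403 to 0.484) and 0.932 (0.881 to 0.987). Complement C3 had 0.344 (0.262 to 0.446) and 0.742 (0.635 to 0.866), and the latter was 0.983 within barcodes of 2000 to 5000 UMIs. SAA1 and SAA2 are near copies, so reads could be divided between them either way.

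**Figure D4:**
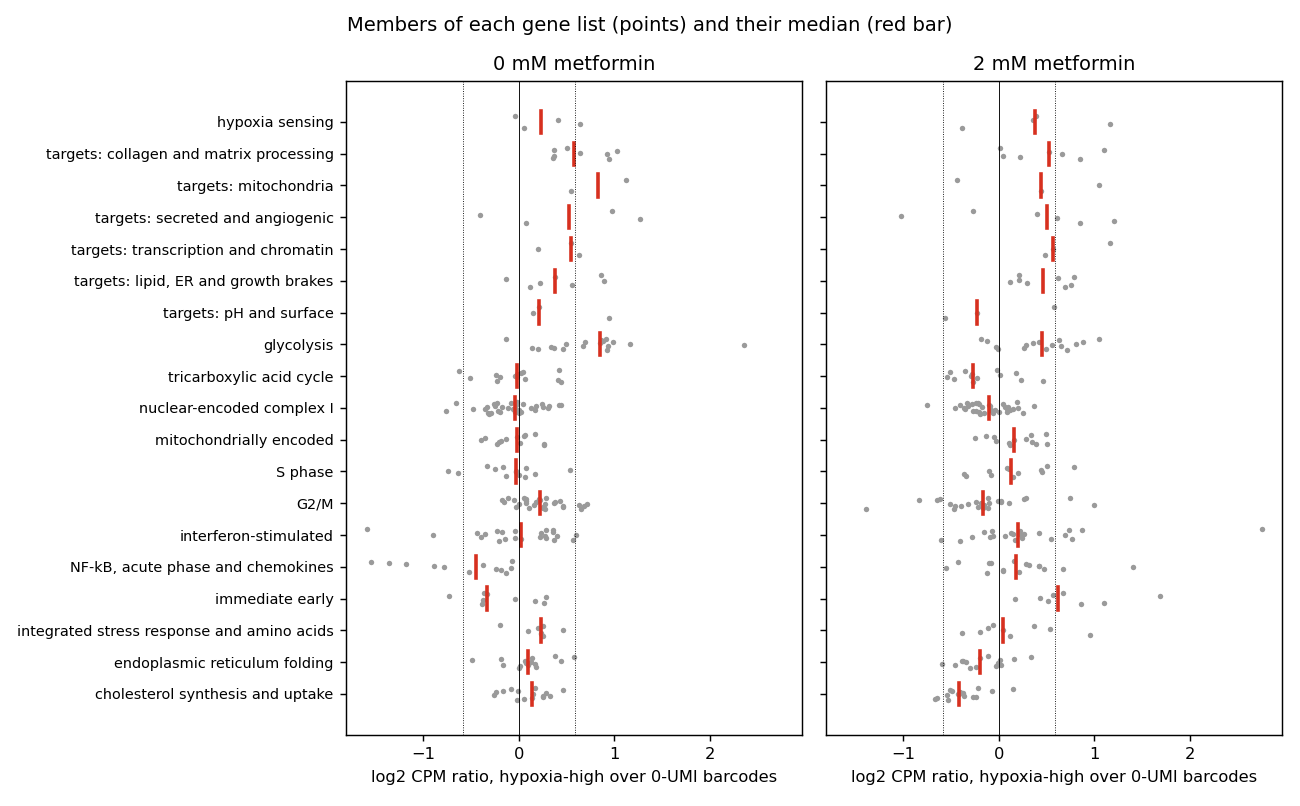
Log2 CPM ratio of hypoxia-high over 0-UMI barcodes (horizontal) of each compared member of 19 gene lists (grey points) with the list's median (red bar), at 0 mM and 2 mM; dotted lines mark 1.5-fold. The medians of glycolysis, 0.85 and 0.46, lie to the right in both libraries, and those of the NF-kB list, -0.45 and 0.18, on opposite sides.

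Within the class, members with CA9 held more glycolysis transcripts in both libraries. Members with a CA9 UMI had 18300 CPM of glycolysis transcripts (17835 to 18773) at 0 mM and those without 16833 CPM (16439 to 17233). At 2 mM they had 14939 CPM (14349 to 15548) and 12033 CPM (11705 to 12367). Members with and without VEGFA had the opposite order, at 16497 and 17878 CPM at 0 mM and 12644 and 13080 CPM at 2 mM. Members with ADM had 19497 against 16927 CPM and 13858 against 12273 CPM. Those with ANGPTL4 had less in both, at 16072 against 17842 CPM and 11943 against 12964 CPM. For NDRG1 and for BNIP3 the order changed between libraries. Hypoxia target transcripts outside the rule were fewer at 2 mM in members with CA9 (7801 against 8038 CPM) and with ADM (7516 against 8222 CPM). At 0 mM both had more. Members with only 1 rule gene, 12 in each library, had 16114 CPM (14949 to 17346) and 11834 CPM (10933 to 12790), both above the 0-UMI barcodes of their library.

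Between libraries, hypoxia-high barcodes at 2 mM held less of the glycolysis list and more acute phase and chemokine transcripts than at 0 mM. Among 4296 genes, 532 (12.4%) were higher at 2 mM by 1.5-fold or more and 465 (10.8%) were lower. Among 0-UMI barcodes it was 358 (8.6%) and 220 (5.28%) of 4164. The smaller number of UMIs in the hypoxia-high class widens its ratios, so these counts cannot be compared as effects.

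Of 19 glycolysis genes, 6 were at least 1.5-fold lower at 2 mM in hypoxia-high barcodes and none higher, with a median log2 ratio of -0.27. In 0-UMI barcodes it was 1 of 16, with 1 higher and a median of 0.01. PKM had a ratio of 0.359 (0.326 to 0.394) in hypoxia-high barcodes and 0.707 (0.655 to 0.762) in 0-UMI barcodes, and TPI1 0.758 (0.687 to 0.835) and 1.15 (1.04 to 1.27). LDHA had 0.830 (0.773 to 0.892) and 0.977 (0.912 to 1.05). PGK1 went the other way in both, at 1.15 (1.03 to 1.28) and 1.18 (1.06 to 1.32). ALDOC had 55 UMIs at 0 mM and 6 at 2 mM, a ratio of 0.137 (0.0480 to 0.317), and CA12 134 and 20 UMIs, a ratio of 0.187 (0.111 to 0.300), against 0.533 (0.377 to 0.745) in 0-UMI barcodes.

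Of 16 NF-kB, acute phase and chemokine genes, 10 were at least 1.5-fold higher at 2 mM in hypoxia-high barcodes, with a median of 1.15, and 7 of 15 in 0-UMI barcodes, with a median of 0.58. SAA2 went from 162 to 943 CPM, a ratio of 5.82 (4.76 to 7.15), against 2.39 (2.15 to 2.66) in 0-UMI barcodes. The neutrophil-attracting chemokine gene CXCL1 went from 121 to 735 CPM, a ratio of 6.06 (4.82 to 7.70), against 2.54 (2.19 to 2.95), but 1 member held 30.9% of its UMIs in the class at 2 mM. LCN2, which binds iron siderophores, went from 8 to 132 UMIs, a ratio of 20.7 (10.2 to 48.8), against 8.54 (5.72 to 13.2). SAA1 (3.96), CXCL3 (8.35) and PDZK1IP1 (8.40) were the others among the 8 highest, with the cystatin genes CST1 and CST4. For CXCL3, 1 member held 40% of the UMIs of the class at 2 mM. PDZK1IP1 was found in 3 members at 0 mM, and 1 of these held 57.1% of its UMIs. CST1 had 0 UMIs at 0 mM and 31 at 2 mM, at least 12.9-fold higher against 3 UMIs for the class, and CST4 0 and 30, at least 12.5-fold; 1 member held 87.1% and 96.7% of them.

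Among the 8 lowest, ESAM, ID1 and LAPTM5 had like ratios in 0-UMI barcodes and ID3 a lower one. ESAM, an adhesion gene, had 0.0849 (0.0224 to 0.229) and 0.0887 (0.0234 to 0.239) there, ID1, an inhibitor of basic helix-loop-helix factors, 0.220 (0.169 to 0.284) and 0.254 (0.202 to 0.317). TCEA3 and ZNF114 had 0.187 and 0.176 in hypoxia-high barcodes. G2/M genes were also lower at 2 mM: 18 of 28 by at least 1.5-fold in hypoxia-high barcodes, with a median of -0.86, and 6 of 28 in 0-UMI barcodes, with a median of -0.44. Of 15 cholesterol synthesis genes in hypoxia-high barcodes, 7 were at least 1.5-fold lower and 1 higher, with a median of -0.46. Of 16 in 0-UMI barcodes, 0 were lower and 3 higher, with a median of 0.08. Over all genes compared, 10.8% were lower by as much in hypoxia-high barcodes and 5.28% in 0-UMI barcodes. Whether any of these library ratios differs between the classes was not tested, since each rests on 1 library per dose.

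**Figure D5:**
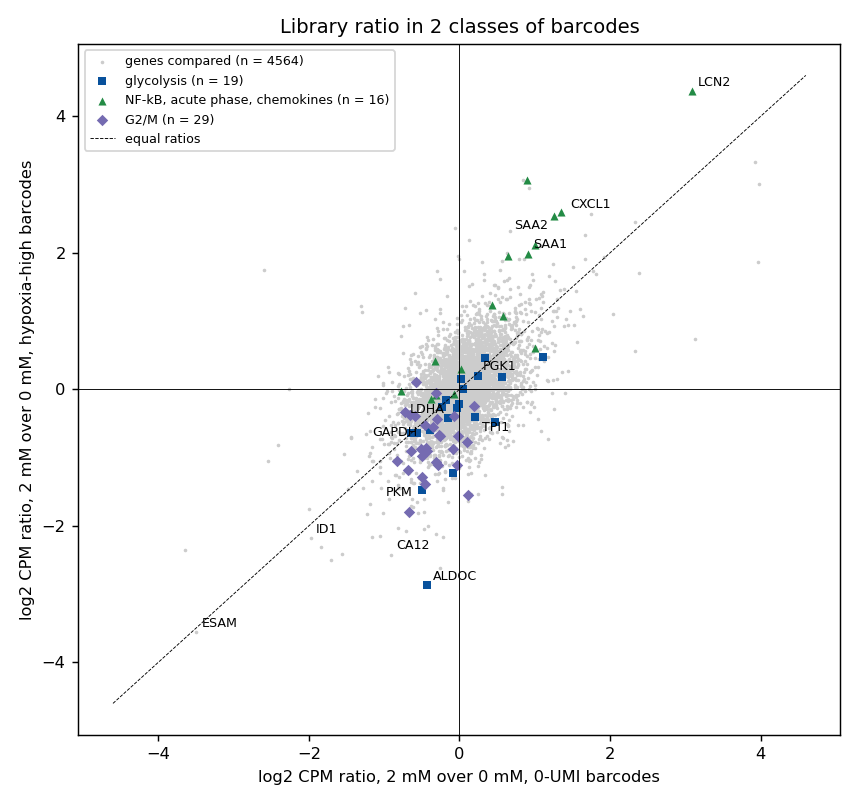
Log2 CPM ratio of 2 mM over 0 mM in 0-UMI barcodes (horizontal) and in hypoxia-high barcodes (vertical) for 4564 genes with UMIs in both classes of both libraries; the dashed line marks equal ratios. Glycolysis genes such as PKM (blue squares) and G2/M genes (purple) lie mostly below the line, and acute phase and chemokine genes (green) mostly above it.

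Members held several markers of the line, while the defining genes of other tissues were at or near 0. VIM, the mesenchymal filament gene, stood at 3961 CPM in hypoxia-high barcodes at 0 mM and at 1701 CPM in those at 2 mM, and SPARC, also on the list of the line's markers, was at 0. The leukocyte gene PTPRC, the fibroblast genes COL1A2 and COL3A1 and the epithelial genes CDH1, KRT14 and ESR1 had 0 UMIs in both classes, while EPCAM, also epithelial, had 25 and 20 UMIs in members. The summed leukocyte list was at 9.53 CPM at 0 mM and 27.3 CPM at 2 mM in members against 5.39 and 8.91 CPM in 0-UMI barcodes, and CD14 gave 5 of the list's 7 UMIs in members at 0 mM and 16 of 16 at 2 mM. Its part in the results was not tested. The fibroblast list was at 5.45 and 1.70 CPM against 0.770 and 7.92 CPM. No doublet caller was run, since doublets of 1 line join like cells. Members were deeper than 0-UMI barcodes, and the part of doublets in the class was not tested. The libraries shared 0 barcodes, and 7 and 12 members had a neighbour 1 base apart in their own library. Neither library held a cell type known to lack these transcripts, so the share of rule UMIs that free RNA gives was not measured.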

How the data were processed

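The authors deposited 1 table of UMI counts per gene and barcode for both libraries, 19826 genes by 2000 barcodes, which was used as raw counts. Per the submitters' processing notes, bcl2fastq and STAR 2.5.0a were used with hg19; not given in the sources used here were the annotation, the strand setting, the collapsing of UMIs and the choice of 1000 barcodes per library. The hypoxia-high class and all gene lists were chosen with earlier results of these data known.

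UMIs were summed over the barcodes of a class and divided by the class's total to give CPM, and ratios were taken of these with exact conditional 95% intervals for counting error (Python 3.11.15, NumPy 2.4.6, SciPy 1.17.1, pandas 2.3.3, figures with matplotlib 3.10.9). The calculation was tested on simulated data. A gene was compared from 50 CPM in either class and 30 UMIs over both, and 1.5-fold was the limit for counts of genes. With 1 library per dose no count model was fitted. TMM factors came from edgeR 4.0.16 in R 4.3.3, as an alternative scaling.

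Genes were named by rank on the interval bound nearest 1: the top 12 and bottom 12 among those on the same side of 1 in both libraries, and the top 8 and bottom 8 between libraries, with up to 3 members from each end of every list, the rule genes, the sensing genes and the markers. Rule genes, mitochondrially encoded genes and ribosomal protein genes were left out of the ranking. ANKRD37, PDK1 and the other genes of the lists, the 30 genes higher and the 12 lower in both libraries were named in addition. Alternatives were a stricter rule, other depth, mitochondrial and CPM minimums, merged barcodes, equal weights, thinning with a fixed seed, and rules without 1 gene. Reads shared with processed copies (GAPDH, PGK1, LDHA, TPI1, ENO1, ALDOA, PKM), between SAA1 and SAA2, between CST1 and CST4, or from overlapping or antisense genes cannot be assigned from this table. Results on some genes are not reported here.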

Additional observations from a re-analysis of the deposited data

Results flagged for a closer look

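DUSP1 and IFNL1 lay on opposite sides of 1 in the libraries, each by at least 1.5-fold and with an interval that left out 1. Whether the ratios differ between the libraries was not tested, since each dose had 1 library. The phosphatase gene DUSP1, an immediate early gene, had a log2 ratio of hypoxia-high over 0-UMI barcodes of -0.73 at 0 mM (59.9 and 99.4 CPM) and 1.69 at 2 mM (131 and 40.6 CPM). Within barcodes of 2000 to 5000 UMIs the DUSP1 ratios were 0.389 (0.150 to 0.853) and 4.66 (2.68 to 8.29), on the same sides. The interferon lambda gene IFNL1 had log2 ratios of -1.59 (47.7 and 143 CPM) and 2.75 (160 and 23.8 CPM). Its UMIs came from few barcodes: 1 member held 80.0% of those of the class at 0 mM and 1 held 60.6% at 2 mM, and at least 2 IFNL1 UMIs were found in 2 of 126 and 4 of 114 members. Within barcodes of 2000 to 5000 UMIs IFNL1 had 0 UMIs in members against 61 at 0 mM and a ratio of 0.369 (0.0410 to 1.59) at 2 mM, so the opposite direction was lost there.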

How the results depend on the processing

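Of 146 values recomputed, 109 stayed within the limits set, 36 moved and 1 reversed. A held-out ratio was called reversed only if its interval over all depths left out 1. Those of ADM, VEGFA and ANGPTL4 at 0 mM also fell below 1 in the range of 2000 to 5000 UMIs, without being called so. All 48 recomputed list medians of hypoxia targets and glycolysis were above 0. The size of the class depends on the rule: with at least 4 rule UMIs and 0.1% its share was 2.97% at 0 mM and 5.25% at 2 mM, from 2000 UMIs per barcode 15.8% and 17.5%, without NDRG1 9.32% and 10.25%, without BNIP3 4.03% and 7.88%, without VEGFA 10.4% at 2 mM and without CA9 11.2% at 0 mM. Thinned to 1000 UMIs, 26.1% and 25.6% of barcodes held a rule UMI. Under the stricter rule, with 28 and 42 members, 731 and 620 genes were at least 1.5-fold higher and 551 and 579 lower, the median log2 ratio of glycolysis was 0.998 at 0 mM and that of the hypoxia targets 0.72 at 2 mM, and 306 and 289 genes were higher and lower between libraries. Within barcodes of 2000 to 5000 UMIs, with 42 and 53 members, 431 and 446 genes were higher, 527 and 527 lower, and 326 higher between libraries. With a minimum of 20 CPM 554 and 504 were higher, 551 and 673 lower, and 868 and 762 higher and lower between libraries. Against every other barcode 108 were higher at 0 mM and 118 lower at 2 mM. The smaller classes and lower minimum hold fewer UMIs per gene by construction; other causes were not tested. TMM factors gave 490 genes higher and 501 lower between libraries.

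Chosen after seeing the data, the range of 2000 to 5000 UMIs gave a held-out ratio at 0 mM of 0.847 for NDRG1, which reversed. There BNIP3 had 1.17, VEGFA 0.690 and ANGPTL4 0.597, which moved. ADM had 0.955, below 1 but inside its interval over all depths. The cause was not tested. Also added then were a minimum on the mean of both classes, members with at least 2 rule genes, and barcodes without CA12, which moved none of their values. No paired analysis was possible because each dose had 1 library. A class sum of 3 UMIs, 4.08 and 5.11 CPM, is the limit of what this depth can show in members.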
